A study of Mus musculus with 14 samples.

Results

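The genes described here encode 10 RNA-binding proteins of neurons and neural progenitors, and they were chosen by symbol: Rbfox1, Rbfox2, Rbfox3, Nova1, Nova2, Ptbp1, Ptbp2, Elavl3, Elavl4 and Dhx9. All 10 were found among the 17927 genes with deposited counts. RNA-SEQ had been run on whole brains taken at P2 (postnatal day 2) from mice of both sexes and 6 litters, 7 of them WT and 7 Capn15 KO. The mice were untreated and the lines were made with C57BL/6J mice. The labels give the genotype of the second group only as KO. The study's methods name a Capn15(lacZ-Neo) and a FLOXed line and do not say which of them gave these brains. Column names of the counts give litter and sex, with 2 female and 5 male WT brains and 4 female and 3 male Capn15 KO brains. A replicate number shared by a WT and a Capn15 KO library marks littermates. Litter B gave 2 brains of each genotype, so that pairs within it are matched by replicate number only. Among these genes, the study followed the proteins of Dhx9 and Rbfox2, which its proteomics had reduced in Capn15 KO. Its immunoblots compared heterozygous with Capn15 KO brains and found no significant difference in either. The counts compare the mRNAs of these regulators between brains labelled WT and Capn15 KO.

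RNA-binding proteins of this kind decide which exons are kept in an mRNA, how long it lasts and how well it is translated. RBFOX proteins bind the word UGCAUG in introns, NOVA proteins bind YCAY clusters through KH domains, and PTB proteins bind pyrimidine-rich tracts. Ptbp1 is found in progenitors and non-neuronal cells, and in neurons it gives way to its paralog Ptbp2, a switch that releases many neuronal exons. The ELAV proteins Elavl3 and Elavl4 (HuC and HuD) bind AU-rich sequences and appear as neurons leave the cell cycle. Dhx9 is a DEAH box helicase that unwinds double-stranded RNA and is found in most cells. A count per gene measures how much mRNA a gene gave. It shows neither which exons were joined nor how much protein was made.

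The libraries held between 37620954 and 70910163 counts on genes. Capn15, the targeted gene, had 25.4 ± 3.07 CPM in WT (SD, n = 7) and 14.5 ± 2.67 CPM in Capn15 KO brains (SD, n = 7), where CPM is the count of a gene per 1000000 counts after TMM scaling. Litter F gave 18.7 CPM in the library labelled WT and 20.2 CPM in that labelled Capn15 KO (replicate 7 of each), which goes against their labels, so that results that rest on these 2 libraries are also given without them. The labels give neurons as the cell type. Pan-neuronal markers (Tubb3, Map2, Snap25, Syt1, Stmn2 and Dcx) summed to between 7001 and 7410 CPM in the WT and between 7055 and 7345 CPM in the Capn15 KO libraries. The markers of astrocytes were also present, at 871 to 1275 CPM in WT and 994 to 1243 CPM in Capn15 KO, and so were those of the oligodendrocyte lineage, at 284 to 434 and 303 to 426 CPM. These are therefore values of whole tissue, in which fewer cells of a type and less RNA per cell cannot be told apart.

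The promoters of 3 of the genes are shown because their start sites lie within 5 bases of those in GENCODE M21 and because, in the comparison of litters given further on, 1 gene was higher, 1 was lower and 1 did not pass the test. RefSeq's promoter windows (GRCm38.p6) run from 250 bases before to 50 bases after a start and were found for 9 of the 10 genes, with none for Rbfox2. Capitals mark the GC box GGGCGG on either strand. The windows are Ptbp1 at chr10:79854182-79854481 (plus strand), Elavl4 at chr4:110351862-110352161 (minus strand, the first of 4 listed windows) and Elavl3 at chr9:22051974-22052273 (minus strand).
Ptbp1: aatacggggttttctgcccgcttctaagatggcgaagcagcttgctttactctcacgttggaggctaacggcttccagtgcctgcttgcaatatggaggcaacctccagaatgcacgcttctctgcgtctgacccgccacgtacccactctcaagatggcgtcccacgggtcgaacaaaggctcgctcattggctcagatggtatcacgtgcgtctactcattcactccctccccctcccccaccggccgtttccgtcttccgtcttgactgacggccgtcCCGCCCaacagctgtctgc
Elavl4: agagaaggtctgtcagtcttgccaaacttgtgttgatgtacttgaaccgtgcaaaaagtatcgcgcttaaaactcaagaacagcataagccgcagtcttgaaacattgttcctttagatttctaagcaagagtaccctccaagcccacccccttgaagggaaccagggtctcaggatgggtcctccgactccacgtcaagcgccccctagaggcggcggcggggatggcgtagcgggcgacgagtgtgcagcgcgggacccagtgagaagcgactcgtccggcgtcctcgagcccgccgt
Elavl3: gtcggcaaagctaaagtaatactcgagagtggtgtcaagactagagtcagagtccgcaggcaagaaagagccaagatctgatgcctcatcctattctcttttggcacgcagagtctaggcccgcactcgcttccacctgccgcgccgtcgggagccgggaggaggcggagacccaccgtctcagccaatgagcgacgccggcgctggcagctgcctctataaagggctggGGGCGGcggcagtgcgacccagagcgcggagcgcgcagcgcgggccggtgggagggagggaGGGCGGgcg
Of all 32851 windows of this length, 35.7% held a GC box. Elavl3 had 2 of them, Ptbp1 had 1 and this window of Elavl4 had none. Elavl3 also held the TATA word TATAAA, found on either strand in 13.6% of all windows, while Ptbp1 and Elavl4 did not. CpG pairs numbered 29 in Elavl3, 23 in Elavl4 and 22 in Ptbp1, against a median of 7 over all windows. Not all other windows sit at the gene start of GENCODE M21. The start used for Rbfox3 lies 150556 bases inside the gene, that for Ptbp2 1078 and 1 of those for Rbfox1 1184480. The listed windows of Rbfox1, Rbfox3 and Nova1 held no GC box, those of Nova2 and Dhx9 held 2 each, and that of Ptbp2 held 6. These are matches of letters and show no binding.

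Levels can be set between genes only per length, and here CPM was divided by the kilobases of all exons merged. On this scale Elavl3 was at 52.4 ± 2.61 and Rbfox2 at 51.6 ± 5.11 CPM per kb in WT (SD, n = 7), which do not differ beyond their spread. Rbfox1 followed at 40.8 ± 0.663 CPM per kb. Ptbp2 and Elavl4 were both at 31.7 CPM per kb, with SDs of 2.75 and 2.45. Dhx9 was at 20.9 ± 0.983 CPM per kb. Nova1 (13.5 ± 1.86), Rbfox3 (12.8 ± 1.18) and Ptbp1 (11.7 ± 1.06 CPM per kb) lay within their spread of their neighbours in this order. Nova2 was lowest, at 3.14 ± 0.453 CPM per kb. The order in Capn15 KO brains was the same, with Nova2 at 3.51 ± 0.276 CPM per kb (SD, n = 7). With the length of the longest coding transcript in place of merged exons, Ptbp2 came first in WT, at 77.0 ± 6.68 CPM per kb, within its spread of Elavl3 at 72.1 ± 3.58 CPM per kb (SD, n = 7 each). The merged exons of Ptbp2 measure 9175 bases and its longest coding transcript 3777. On the transcript length Dhx9 (43.4 ± 2.04 CPM per kb in WT) came before Elavl4 (41.1 ± 3.18), within their spread. Rbfox3 (23.6 ± 2.18) came before Nova1 (16.5 ± 2.27) beyond their spread, and Ptbp1 (17.5 ± 1.58) came before Nova1 within it. Nova2 stayed lowest on either length.

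None of the 10 genes passed the test between genotypes. In edgeR's quasi-likelihood test, fitted with terms for litter, sex and genotype and with p-values adjusted over all 17927 genes, 0 of 10 had an FDR under 0.05. Over all genes this test called 0.00558% (1 gene). At an unadjusted p under 0.05 it had 1 of the 10, Nova2, where 5.14% of all genes passed, 2.88% with higher levels in Capn15 KO as Nova2 had. DESeq2, edgeR's likelihood ratio test and limma-voom also called 0 of the 10 and had Nova2 alone at an unadjusted p under 0.05. The CPM values of WT and Capn15 KO brains overlapped for all 10 genes, as they did for all but 0.00558% of the genes tested. Those of Capn15 itself overlapped too, with a lowest WT value of 18.7 and a highest Capn15 KO value of 20.2 CPM. The study's own edgeR analysis, with sex and litter as variables, listed more genes at this FDR, Capn15 among them. The likelihood ratio test called 34 genes here. A gene that misses the quasi-likelihood threshold may therefore still differ. For the 9 genes other than Nova2 the 95% intervals of the fold change lay between 0.939 and 1.08 in the fit of all 14 libraries. These limits moved for Dhx9, whose log2 fold change was -0.047 (standard error 0.0526) without WT replicate 5 or without Capn15 KO replicate 5. It was 0.061 (standard error 0.0399) without litter F. With litter in the model, a library left alone in its litter tells nothing of genotype. Leaving out either replicate 5 therefore gives nearly the same fit, as does leaving out either replicate 4. Without WT or Capn15 KO replicate 4, Ptbp1 was at 0.082 (standard errors 0.0340 and 0.0331) and Rbfox3 at 0.064 (0.0350 and 0.0343). In each of these fits 2 of 10 genes, Nova2 and Ptbp1 but not Rbfox3, had an unadjusted p under 0.05, beside 1247 and 1248 of all genes. None of the 10 had an FDR under 0.05. The intervals are for single genes and are not adjusted for their number. Without the 2 libraries of litter F, 0 of 10 genes had an FDR under 0.05 and 0 of 10 an unadjusted p under 0.05. Of all 17927 genes 7 and 671 did.

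**Figure D1:**
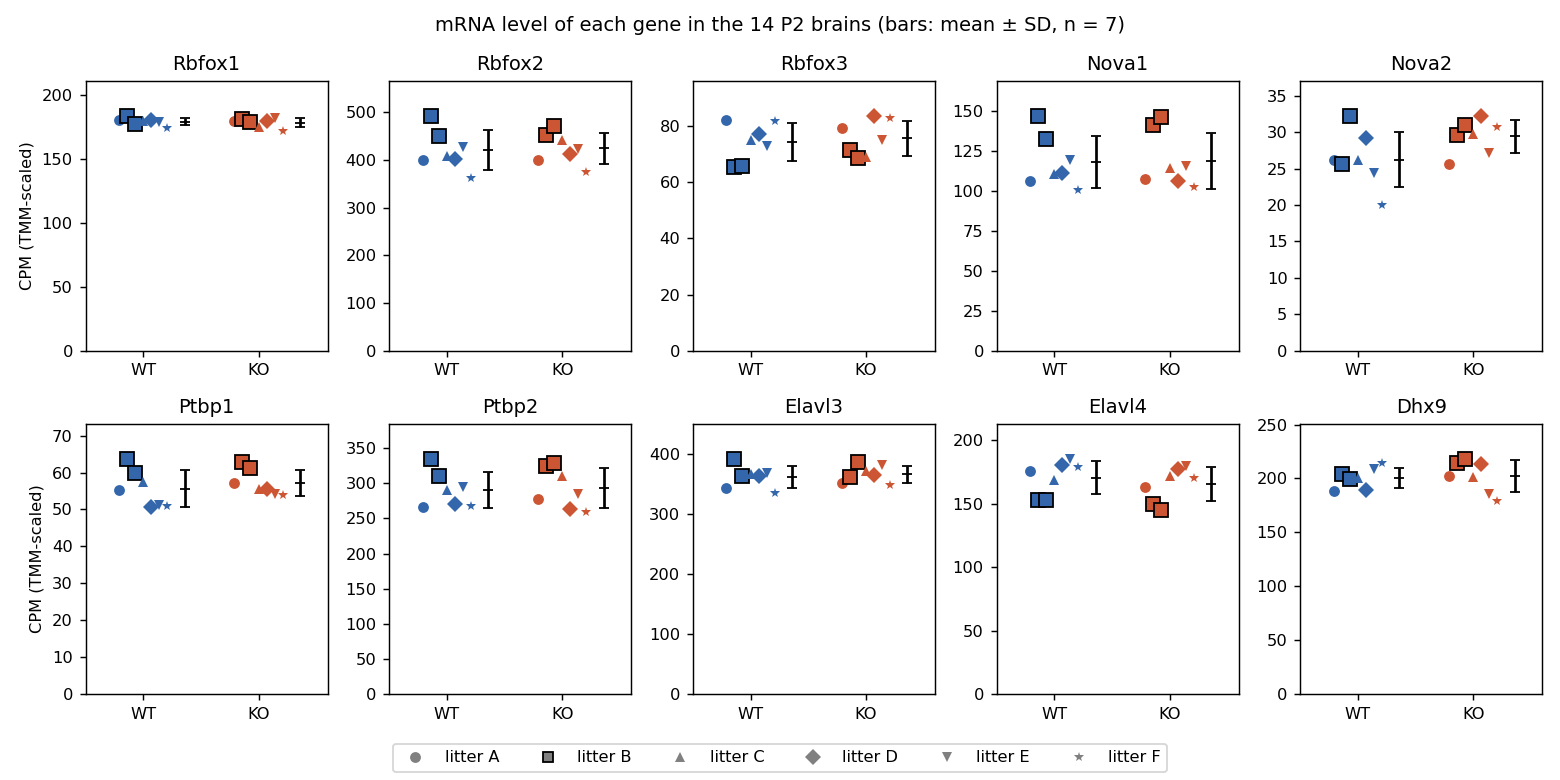
Level of each gene in CPM (y axes from 0) in 7 WT and 7 Capn15 KO brains, with 1 point per library, a symbol for each litter and bars for mean ± SD. The groups overlap in every panel, and the outlined squares of litter B lie above the other points for Rbfox2, Nova1, Ptbp1 and Ptbp2 and below them for Elavl4.

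In the RBFOX family, Rbfox1 (ENSMUSG00000008658, chromosome 16 of GRCm38, 5885355 to 7411526, plus strand) spans the longest locus of the 10, and the longest of its coding transcripts has 15 exons. Rbfox1 was at 174 CPM in its lowest WT brain, 180.1 in the median and 184 in the highest. The Capn15 KO values of Rbfox1 ran from 172 over a median of 179.7 to 182 CPM. All 14 values lay close together, and in both groups the lowest was the library of litter F. Its log2 fold change was -0.010 (95% interval -0.060 to 0.039). Between WT brains its CPM varied by 1.63% of the mean, the least of the 10 genes. The counting error of Rbfox1 was 1.23% at its lowest count over all libraries, 6575 in Capn15 KO replicate 7.
Rbfox2 (ENSMUSG00000033565, chromosome 15, 77078990 to 77307004, minus strand) is also used outside neurons. It was at 362 CPM in its lowest WT brain, 409 in the median and 492 in the highest. Rbfox2 ran from 375 over a median of 423 to 470.3 CPM in Capn15 KO brains. The highest values of both groups were those of replicates 2 and 3, the 4 libraries of litter B. The log2 fold change was 0.031 (95% interval -0.025 to 0.087, FDR = 0.99996 in edgeR's quasi-likelihood test), and 4 of 7 litter-matched pairs had more Rbfox2 in Capn15 KO.
Rbfox3 (ENSMUSG00000025576, chromosome 11, 118489762 to 118911597, minus strand) encodes NeuN, the nuclear antigen of most mature neurons. It was at 65.4 CPM in its lowest WT brain, 75.2 in the median and 82.1 in the highest. The Capn15 KO values of Rbfox3 ran from 68.8 over a median of 75.0 to 83.6 CPM. Here replicates 2 and 3 were the lowest in WT and among the 3 lowest in Capn15 KO, opposite to Rbfox2. The log2 fold change was 0.020 (95% interval -0.051 to 0.090).

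In the NOVA family, Nova1 (ENSMUSG00000021047, chromosome 12, 46694517 to 46818929, minus strand) was at 100.2 CPM in its lowest WT brain, 111 in the median and 147 in the highest. Nova1 ran from 102 over a median of 114 to 146 CPM in Capn15 KO brains. Within each genotype the values of replicates 2 and 3 stood above the other 5. The log2 fold change was 0.0061 (95% interval -0.061 to 0.073).
Nova2 (ENSMUSG00000030411, chromosome 7, 18925888 to 18965319, plus strand) encodes the NOVA protein that prevails in neocortex. It was at 26.2, 25.6, 32.2, 26.2, 29.1, 24.4 and 20.04 CPM in WT replicates 1 to 7. Its Capn15 KO values, in the same order, were 25.6, 29.6, 31.1, 29.7, 32.2, 27.1 and 30.7 CPM. The groups overlapped over most of their range, and the lowest value was that of the library labelled WT replicate 7. The mean of Nova2 was 26.2 ± 3.79 CPM in WT (SD, n = 7) and 29.4 ± 2.31 CPM in Capn15 KO (SD, n = 7), and 5 of 7 pairs had more of it in Capn15 KO. The log2 fold change was 0.19 (standard error 0.0684, 95% interval 0.044 to 0.34, FDR = 0.797 in edgeR's quasi-likelihood test), which did not pass the test over all genes. Without litter F it was 0.11, and the unadjusted p of the same edgeR test went from 0.0146 to 0.0502. With 1027 counts in its lowest library, Nova2 had a counting error of up to 3.12%, the largest of the 10 genes.
Forebrain markers also differed between these libraries. Their smallest sum was that of WT replicate 7, at 311 CPM against 342 to 391 CPM in the other WT libraries, and sums in the Capn15 KO libraries were 321 to 401 CPM. The lowest Capn15 KO sum was that of replicate 7, where Nova2 was at 30.7 CPM. Of the 7 forebrain markers 4, Tbr1 and Lhx2 among them, were higher in Capn15 KO at an unadjusted p under 0.05 and none at an FDR under 0.05 in the same test. Markers of hindbrain and more caudal tissue summed to 22.0 to 36.4 CPM in WT and 17.8 to 34.6 CPM in Capn15 KO, with 1 of 7 (Hoxb3) lower at an unadjusted p under 0.05. Of 5 choroid plexus markers 4 were lower at that p, with sums of 47.0 to 57.0 CPM in WT and 39.9 to 51.1 CPM in Capn15 KO. The part of the regional makeup of the brains in the level of Nova2 was not tested.

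Among the polypyrimidine tract binding proteins, Ptbp1 (ENSMUSG00000006498, chromosome 10, 79854427 to 79864771, plus strand) was at 50.8 CPM in its lowest WT brain, 55.2 in the median and 63.6 in the highest. The Capn15 KO values of Ptbp1 ran from 53.8 over a median of 55.6 to 63.0 CPM. Replicates 2 and 3 were the highest of each genotype. The log2 fold change was 0.046 (95% interval -0.020 to 0.11). Plppr3, a gene on the other strand with an average of 271 CPM, overlaps Ptbp1, so that the count of Ptbp1 is uncertain if the counting ignored strand.
Ptbp2 (ENSMUSG00000028134, chromosome 3, 119718742 to 119784466, minus strand) was at 267 CPM in its lowest WT brain, 290.0 in the median and 334 in the highest. Ptbp2 ran from 259.9 over a median of 285 to 329 CPM in Capn15 KO brains. The neuronal paralog thus had its highest values in the same 4 libraries as Ptbp1. Its log2 fold change was 0.011 (95% interval -0.049 to 0.071).

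Of the neuronal ELAV genes, Elavl3 (ENSMUSG00000003410, chromosome 9, 22015005 to 22052023, minus strand) was at 335 CPM in its lowest WT brain, 363 in the median and 390.5 in the highest. The Capn15 KO values of Elavl3 ran from 348 over a median of 365 to 386 CPM. Litter F was lowest in both groups, and the range of litter B overlapped that of the other 10 libraries. The log2 fold change was 0.019 (95% interval -0.038 to 0.076), and 6 of 7 pairs by replicate number had more Elavl3 in Capn15 KO. That count depends on the matching in litter B, where WT replicates 2 and 3 were at 390.5 and 363 CPM. Capn15 KO replicates 2 and 3 were at 361 and 386 CPM.
Elavl4 (ENSMUSG00000028546, chromosome 4, 110203722 to 110351909, minus strand) was at 153 CPM in its lowest WT brain, 176 in the median and 185 in the highest. Elavl4 ran from 145 over a median of 171 to 180.2 CPM in Capn15 KO brains. Its 4 lowest values were those of litter B. The log2 fold change was -0.037 (95% interval -0.089 to 0.015), and 6 of 7 pairs had less Elavl4 in Capn15 KO.
Dhx9 (ENSMUSG00000042699, chromosome 1, 153455758 to 153487660, minus strand), the helicase, was at 188 CPM in its lowest WT brain, 200.2 in the median and 214 in the highest. The Capn15 KO values of Dhx9 ran from 179 over a median of 202 to 218 CPM. The highest WT value and the lowest Capn15 KO value were both in litter F. The log2 fold change was 0.011 (95% interval -0.091 to 0.11, FDR = 0.99996 in edgeR's quasi-likelihood test), and without litter F it was 0.061.

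**Figure D2:**
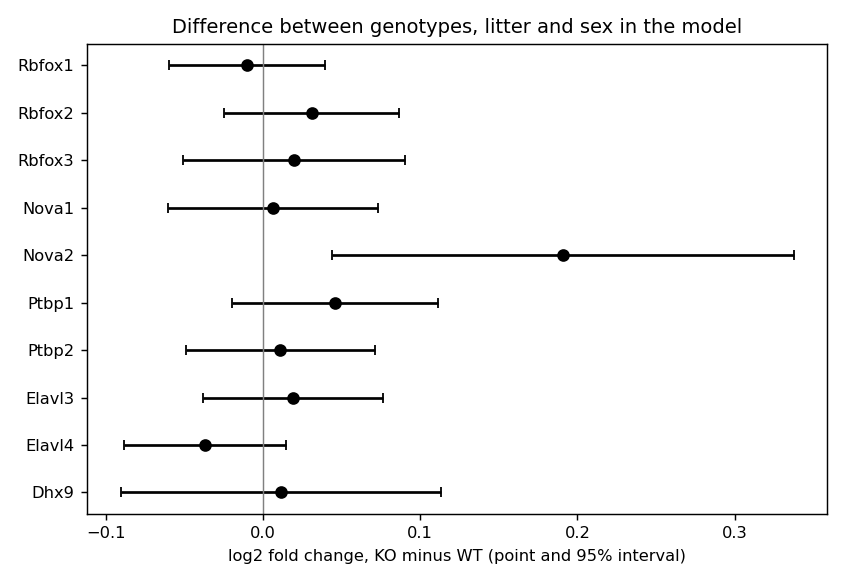
Log2 fold change of each gene, Capn15 KO minus WT (x axis), as a point with its 95% interval from edgeR's quasi-likelihood fit over 14 libraries. The intervals of 9 genes include 0, and that of Nova2, which did not pass an FDR of 0.05, runs from 0.044 to 0.34.

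No gene passed the test between sexes either. In the same fit 0 of 10 genes had an FDR under 0.05 between 6 female and 8 male brains, where 0.0669% of all genes did, and 0 of 10 had an unadjusted p under 0.05, where 5.04% did. The gene with the largest difference between sexes in log2 terms was Nova2, at 28.1 ± 2.13 CPM in female and 27.6 ± 4.31 CPM in male brains (SD, n = 6 and 8). With genotype and litter in the model its log2 difference, female minus male, was -0.074, the reverse of these means.

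The litters differed in 6 of the 10 genes. When the litter terms were tested together with edgeR's quasi-likelihood test, Rbfox2, Rbfox3, Nova1, Ptbp1, Ptbp2 and Elavl4 had an FDR under 0.05. The test called 29.6% of all genes, and 41.6% of the 7203 genes whose mean CPM was at least that of Nova2, so that the count of 6 sets these genes little apart from others of their level. The adjusted p of this edgeR test was 6.04e-05 for Nova1, 0.000437 for Rbfox2, 0.00347 for Rbfox3, 0.00529 for Ptbp1, 0.000693 for Ptbp2 and 0.00047 for Elavl4. It was 0.11 for Elavl3, 0.186 for Nova2, 0.793 for Dhx9 and 0.815 for Rbfox1. Without the 4 libraries of litter B, a setting added after the values were seen, 0 of 10 genes and 1.09% of all genes were called, with fewer libraries in the fit. Without litter F, also added then, the same 6 genes were called.

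Litter B, with 2 WT and 2 Capn15 KO brains, is described here without a test because it was picked after its values were seen. Nova1 was at 132 to 147 CPM in its 4 libraries and at 100 to 119 CPM in the other 10, a fitted difference of 0.37 on the log2 scale (standard error 0.0324), or 1.30-fold. Rbfox2 was at 451 to 492 CPM against 362 to 441 CPM, and Ptbp2 at 311 to 334 CPM against 259.9 to 310 CPM. Ptbp1 was at 59.8 to 63.6 CPM against 50.8 to 57.5 CPM. In these 4 genes the libraries of litter B lay above all others. Elavl4 went the other way, with 145 to 153 CPM in litter B and 163 to 185 CPM elsewhere, a log2 difference of -0.22 (standard error 0.0258), or 0.858-fold. Rbfox3 was at 65.4 to 71.4 CPM in litter B and 69.0 to 83.6 CPM elsewhere, with a log2 difference of -0.20, and its ranges overlapped. Rbfox1 differed by 0.017 on the log2 scale. Under RLE factors and under total counts alone all 10 differences kept their sign, with Nova1 at 0.38 and Elavl4 at -0.22 under both. Over all 17927 genes the 4 libraries lay above all others in 7.45% and below all others in 9.77%, and the median difference was 0.0073.

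**Figure D3:**
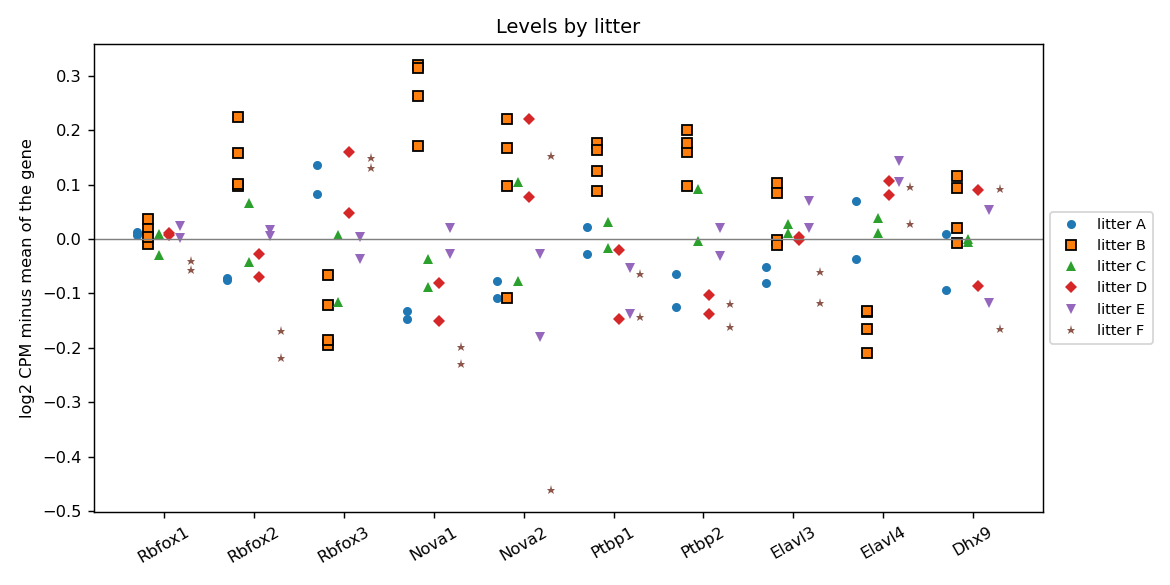
Log2 CPM of each library minus the mean of that gene over the 14 libraries (y axis), by gene and coloured by litter. The outlined squares of litter B lie above the other litters for Rbfox2, Nova1, Ptbp1 and Ptbp2, below them for Elavl4, and overlap with them for Rbfox1, Rbfox3, Nova2, Elavl3 and Dhx9.

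Markers of cell types and brain regions differed in the same libraries. Astrocyte markers (Aldh1l1, Slc1a3, Aqp4, Gfap and Aldoc) summed to 871 to 1012 CPM in litter B and 1085 to 1275 CPM in the other litters. Markers of the oligodendrocyte lineage summed to 284 to 317 CPM against 325 to 434 CPM, with 6 of 6 genes called between litters and lower in litter B. Markers of microglia summed to 77.1 to 91.0 CPM against 92.9 to 108 CPM. Red blood cell markers were at 157 to 266 CPM in litter B and 25.2 to 158 CPM elsewhere. Pan-neuronal markers, at 7055 to 7202 CPM in litter B and 7001 to 7410 CPM elsewhere, and progenitor markers, at 561 to 610 against 539 to 602 CPM, overlapped in their sums. Within these lists, 4 of 6 pan-neuronal markers were called between litters, with Snap25 (log2 difference -0.35), Syt1 (-0.30) and Stmn2 (-0.15) lower and Dcx (0.31) higher in litter B, and 7 of 8 progenitor markers were called, 4 higher and 3 lower. Hindbrain and caudal markers lay just above the other litters in litter B, at 33.7 to 36.4 CPM against 17.8 to 33.6 CPM, with 3 of 7 called and higher. Slc6a5, the marker with the most CPM in that list, was not called. Forebrain markers, at 367 to 401 CPM in litter B and 311 to 401 CPM elsewhere, overlapped in their sums. Of these 5 of 7 were called, 4 higher and 1 lower in litter B. The part of these markers in the levels of the 10 genes was not tested. The column names give no batch or lane. The paper's methods put 4 samples on a lane, and the lane of each library is not given. Litter cannot be told apart from whatever else the pups of a litter shared.

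Ratios between paralogs within a library need no scaling between libraries. None of 5 such ratios passed a p of 0.05 between genotypes when all regroupings of the 14 libraries were enumerated (exact permutation, two-sided, smallest possible p = 0.000583). These regroupings ignore litter and the pairing of littermates, so that differences between litters add to the spread. The log2 ratio of Ptbp2 to Ptbp1 counts was 2.39 ± 0.0784 in WT and 2.35 ± 0.0857 in Capn15 KO brains (SD, n = 7 each, exact permutation p = 0.429). Nova2 to Nova1 was at -2.17 ± 0.21 and -2.01 ± 0.218 (SD, n = 7 each, exact permutation p = 0.175), with a larger ratio in Capn15 KO in 5 of 7 pairs. The difference of 0.16 was 0.094 without litter F (exact permutation p = 0.468) and 0.11 without WT replicate 2 (exact permutation p = 0.33). Elavl4 to Elavl3 was at -1.08 ± 0.164 and -1.15 ± 0.141 (SD, n = 7 each, exact permutation p = 0.444). Rbfox3 to Rbfox1 differed by 0.033 (exact permutation p = 0.654) and Rbfox3 to Rbfox2 by 0.0091 (exact permutation p = 0.95). These p-values are not adjusted.
By litter, the ratio of Elavl4 to Elavl3 was between -1.41 and -1.25 in the 4 libraries of litter B and between -1.12 and -0.90 in the other 10, with no overlap. The promoters printed above belong to these paralogs and to Ptbp1. Rbfox3 to Rbfox2 was between -2.91 and -2.66 in litter B and between -2.68 and -2.14 elsewhere, an overlap at the edge of the ranges. Ptbp2 to Ptbp1 was between 2.37 and 2.42 in litter B, inside the 2.25 to 2.53 of the other litters, so that both PTB genes were higher there by a like factor.

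**Figure D4:**
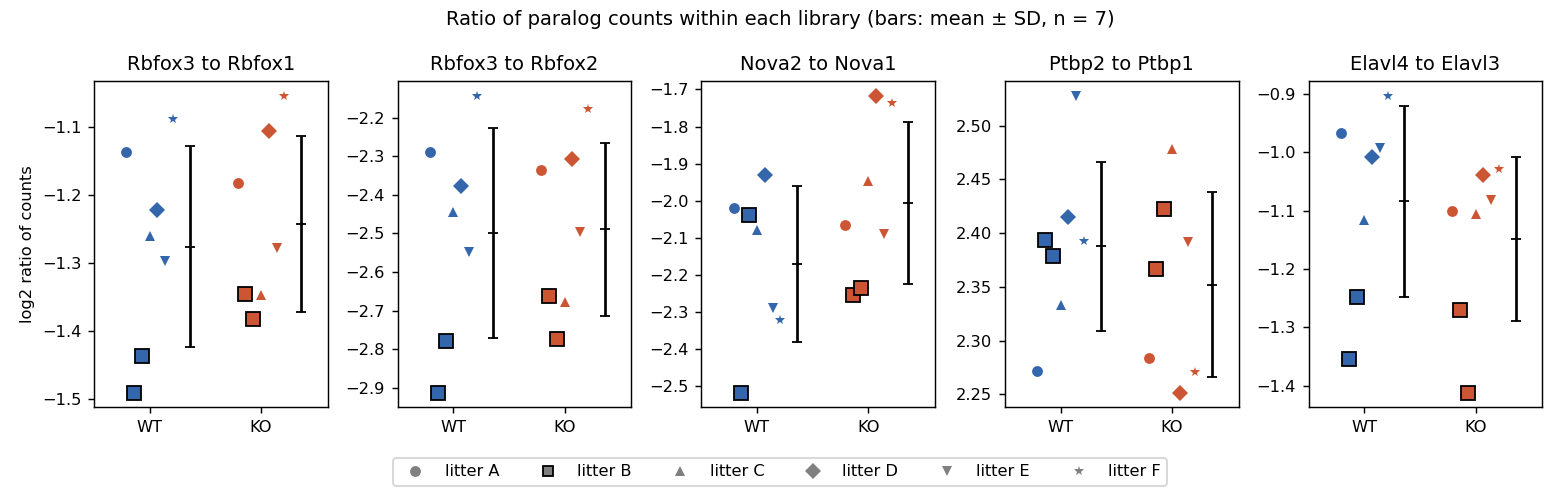
Log2 ratio of the counts of paralogs within each library (y axes do not start at 0) in WT and Capn15 KO brains, with a symbol for each litter and bars for mean ± SD of 7 libraries. WT and Capn15 KO overlap in all 5 panels, and the outlined squares of litter B lie below all other points for Elavl4 to Elavl3, from -1.41 to -1.25.

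Other regulators of RNA were counted in 5 lists that hold 106 genes, 102 of them measured. Of these 0 had an FDR under 0.05 between genotypes in edgeR's quasi-likelihood test, and 5 (4.9%, against 5.14% of all genes) had an unadjusted p under 0.05, all higher in Capn15 KO. The median log2 fold change was 0.0024, beside 0.0015 over all genes. The closest paralogs were Elavl1 (log2 fold change 0.030), which is expressed in most cells, Elavl2 (-0.052), a further neuronal ELAV gene, and Ptbp3 (-0.020), and 0 of 3 had an unadjusted p under 0.05. Of 27 other tissue-regulated splicing factors 2 were higher at an unadjusted p under 0.05, Pcbp2 (0.11) and Celf2 (0.10), which bind poly(C) and GU-rich RNA. Of 29 general SR and hnRNP factors 1 was, Srrm2 (0.13), a spliceosome scaffold, and the next by p was Srrm1 (0.075). Of 19 regulators of mRNA transport, stability and translation 2 were, among them Msi1 (0.085), which encodes the progenitor protein Musashi. Of 24 DEAD and DEAH box helicases 0 were, and those with the smallest p were Ddx1 (-0.037) and Ddx17 (0.045).
Between litters 50 of the 102 (49%) had an FDR under 0.05, beside 29.6% of all genes and 41.6% of those at or above the level of Nova2. Of the 50, 31 were higher and 19 lower in litter B, where over all genes 2427 of those called were higher and 2874 lower. The counts were 1 of 3 paralogs, 16 of 27 tissue-regulated factors, 12 of 29 SR and hnRNP factors, 9 of 19 regulators of transport and translation and 12 of 24 helicases. Named after their values were seen, Igf2bp1 and Igf2bp3, fetal mRNA-binding proteins, were higher in litter B by 0.61 and 0.59 on the log2 scale, and Tra2a, an SR-like factor, was lower by a difference of -0.54.

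The genes most like each of the 10 across the 14 libraries, by Pearson's r of log2 CPM among 15226 other genes with at least 1 CPM on average, are given as a description. The 14 points share 6 litters and are not independent. For Nova1 they were H3f3b (0.99) and Rrn3 (0.98), for Ptbp2 Rps15a (0.99), and for Rbfox2 Tulp4 and Robo1 (0.98 each). Rbfox3 was closest to Clstn3 and to Syp, which encodes the vesicle protein synaptophysin (0.97 each), and Elavl4 to Lgalsl and Hltf (0.96 each). Ptbp1 was closest to Ext2 and Pigm (0.95 each), Elavl3 to Luc7l and Hif3a (0.93 each) and Nova2 to Rnf165 (0.93). Dhx9 came with Hint1 (0.90) and Col4a2 (0.88), and Rbfox1, which varied least, with Brd9 (0.89) and Polr2m (0.86).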

How the data were processed

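Counts from 14 P2 brains (7 WT, 7 Capn15 KO) were used. The authors trimmed the reads with Trimmomatic, aligned them to GRCm38 with STAR and, per the paper's methods, counted them on genes with HTSeq-count, while the submitters' processing notes name featureCounts. They deposited whole-number counts, not normalized, for 17927 genes, filtered by a rule not given in the sources used here, and a table of gene symbols. The kit is a stranded TruSeq kit per the labels and ScriptSeq per the paper, and the strand setting of the counting is not given in the sources used here. Groups and replicate numbers were taken from the titles, and the column names gave litter and sex. Positions are from GENCODE M21 (GRCm38), where 17909 genes were found.

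The fits were made with edgeR 4.0.16 in R 4.3.3 (quasi-likelihood test at its defaults, TMM, no gene with counts left out, litter and sex in the model, Benjamini-Hochberg adjusted p under 0.05), DESeq2 1.42.0 and limma 3.58.1, and in Python 3.11.15 with scipy 1.17.1. Log2 CPM used a prior count of 2. The scripts were tested on simulated data. Nothing says whether the brains of a group share more than their litter. Same-numbered libraries share a litter per the column names, and their deviations from the genotype means correlated by 0.0828 on average (from -0.40 to 0.29) across 17917 genes, against -0.026 for different litters. Alternatives were RLE or no factors, filterByExpr, other tests and covariates, a replicate block, each library left out, and litters B or F left out. Genes named in the text are the 10 genes, Capn15, the 2 genes of each list with the smallest p (all 3 for the paralogs), and the 2 most similar genes to each of the 10. A few genes that this rule names are not reported here. The genes and lists were chosen with earlier results of these data known.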

Additional observations from a re-analysis of the deposited data

How the results depend on the processing

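Over 25 alternatives (24 planned, 1 added after seeing the data) 0 of the 10 genes were called between genotypes, and over 14 of them with single libraries left out also 0. Outside litter B, leaving out either library of a litter gives nearly the same fit, so that these 14 are not separate checks. Over all genes the quasi-likelihood test called 1 gene. It called 0 with total counts only, 0 with the replicate block in place of litter (pairs within litters), 2 with litter without sex, 7 without litter F and 0 without litter B. DESeq2 called 22 and the likelihood ratio test 34. With single libraries left out, 0 to 7 genes were called: 7 without Capn15 KO replicate 7, 6 without WT replicate 7, 2 without Capn15 KO replicate 3, 1 without WT replicate 2 and 0 without each of the others. The block changed no call among the 10 genes, and for Nova2 it gave a log2 fold change of 0.19 (FDR = 0.94). Sign flips of the 7 pairs, as a replicate block, left the 5 ratios between genotypes at the same mean difference with no p under 0.05. The sign-flip p was 0.109 for Elavl4 to Elavl3, 0.125 for Nova2 to Nova1 and 0.297 for Rbfox3 to Rbfox1. It was 0.469 for Ptbp2 to Ptbp1 and 0.797 for Rbfox3 to Rbfox2, with a smallest possible p of 0.0156.

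Between litters, 6 of the 10 genes were called under RLE factors, filterByExpr and the likelihood ratio test, 6 to 7 with single libraries left out, and 0 without litter B. Between sexes 0 were called in each of these.

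Signs changed only where differences were near 0. Without litter B the log2 fold change was -0.00085 for Rbfox3, -0.0049 for Nova1 and -0.029 for Dhx9, and the log2 ratio of Rbfox3 to Rbfox2 differed by -0.038. With single libraries left out the log2 fold changes ranged from -0.047 to 0.061 for Dhx9, from -0.015 to 0.032 for Nova1, from -0.020 to 0.031 for Ptbp2 and from -0.026 to 0.064 for Rbfox3, and the ratio of Rbfox3 to Rbfox1 from -0.0022 to 0.065 and of Rbfox3 to Rbfox2 from -0.060 to 0.068. Nova2 stayed positive in all 25, from 0.11 to 0.24 (FDR from 0.478 to 1). Ptbp1 also stayed positive in all 25, from 0.015 to 0.082. Depth limited Nova2 most, where counting error reached 3.12%. Counts per gene cannot show splice forms.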
